A study of Mus musculus with 12 samples.

Results

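The genes described here belong to the families of cell surface and secreted proteins known best as axon guidance cues: the Eph receptors and their ephrin ligands, the semaphorins and their plexin receptors, the netrins and their Unc5 receptors, and the Slits and their Robo receptors. Members were chosen by gene symbol alone, from the 10 family prefixes, without Slitrk genes. Of 66 such genes with a named probe, 44 were detected, which required 3 or more of the 12 arrays with a detection p-value below 0.05, out of 11124 detected genes in all. Where several probes of a gene qualified, the brightest on average stood for it. The detected members were 11 of 14 Eph receptors, 6 of 8 ephrins, 13 of 19 semaphorins, 4 of 9 plexins, 3 of 5 netrins, 2 of 4 Unc5 receptors, 2 of 3 Slits and 3 of 4 Robo receptors. These totals count only genes with a named probe, which Ntn1 and Sema3d lacked, so their levels are not covered here.

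RNA came from the epiblast of mouse embryos at stage E7.75, cut along the anterior to posterior axis, and was measured on Illumina bead arrays. The 4 groups were Dkk-/- posterior, Dkk+/+ posterior, Dkk-/- anterior and Dkk+/+ anterior tissue, with 3 arrays each. Dkk-/- is called knockout and Dkk+/+ control below, and the sample codes name Dkk1, the gene of a secreted Wnt inhibitor. The sources used here give neither the strain, nor how the allele was made, nor the number of embryos in a sample. The labels also leave unsaid whether arrays of a group came from separate embryos, so the p-values reflect the spread of these arrays alone, which may be technical.

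Proteins of these families carry signals between touching or neighbouring cells, and most are known for pushing cells or growth cones apart. Ephrins are held in the membrane and bind Eph receptor tyrosine kinases on the next cell, semaphorins bind plexins (the secreted class through neuropilins), netrins attract through Dcc and repel through Unc5 receptors, and Slits repel through Robo receptors. In the gastrulating embryo, before any axon exists, the same systems are known for sorting cells, keeping boundaries and steering migrating mesoderm.

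Mean array intensity ran between 189 (knockout posterior replicate 2; the next was 301) and 693, and 36.2% to 42.3% of the probes were detected on an array. The level of Dkk1 was 6, 6.27 and 6.17 in knockout anterior arrays, against 6.1, 5.78 and 6.06 in control anterior arrays (log2 change 0.17, adjusted p = 0.83). In the posterior region it was 4.74, 4.31 and 4.46 in knockout arrays, none of which detected it, against 5.05, 5.12 and 4.64 in control arrays, of which 2 of 3 did (adjusted p = 0.439, unadjusted p = 0.022). The sources used here do not place the probe relative to the deleted part, so its level checks nothing about the genotype. Of the primitive streak and nascent mesoderm markers, 5 of 6 detected ones were higher in posterior than in anterior arrays of both genotypes. The visceral endoderm markers were strong on every array: all 8 were detected, and their mean level lay between 11.04 and 11.37, so the samples labelled epiblast held that tissue's RNA too. None of those 8 passed the threshold in any of the 6 contrasts (limma, adjusted p under 0.05), with at most 3 of them at an unadjusted p under 0.05 in a contrast. Postmitotic neuron markers were called in 1 contrast: Dcx and Elavl3, 1 higher and 1 lower, between regions of control embryos.

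The first comparison asks how the members differ between the posterior region, which holds the primitive streak, and the anterior region, from which the head arises. In knockout arrays 15 of the 44 members passed the threshold (34.1%), against 7.87% of all genes; 8 were higher in posterior tissue, where 3.56% of all genes were, and 7 were lower, where 4.31% of all genes were. In control arrays 13 members passed (29.5%), against 4.98% of all genes; 8 were higher, against 2.69% of all genes, and 5 lower, against 2.29%. The median size of the regional change was 0.49 over the members and 0.21 over all genes in knockout arrays, and 0.35 over the members and 0.17 over all genes in control arrays (log2 scale). A level in bulk tissue is an average, so fewer cells that carry a transcript and less of it per cell cannot be told apart here.

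The comparisons in the 2 genotypes share no arrays, but 1 estimate of each gene's spread, from all 12 arrays, served both. Calls in the 2 genotypes are thus not independent. In both, 12 members passed, all in the same direction. These are 80% of the members called in knockout arrays and 92.3% of those called in control arrays. For all genes the shared calls are 38.9% of the knockout calls and 61.6% of the control calls. Across the 44 members, the regional change in knockout arrays correlated with that in control arrays at a Pearson r of 0.87, given as a description over members (0.698 over all genes). Epha1, Epha2, Efna1, Sema6a, Sema7a, Plxna2, Unc5c and Robo4 were higher in posterior tissue. Sema3f, Sema6b, Robo1 and Robo3 were lower there, though Robo3 came to 0.01 in knockout arrays when arrays were scaled by the median of the probes detected on all of them.

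**Figure D1:**
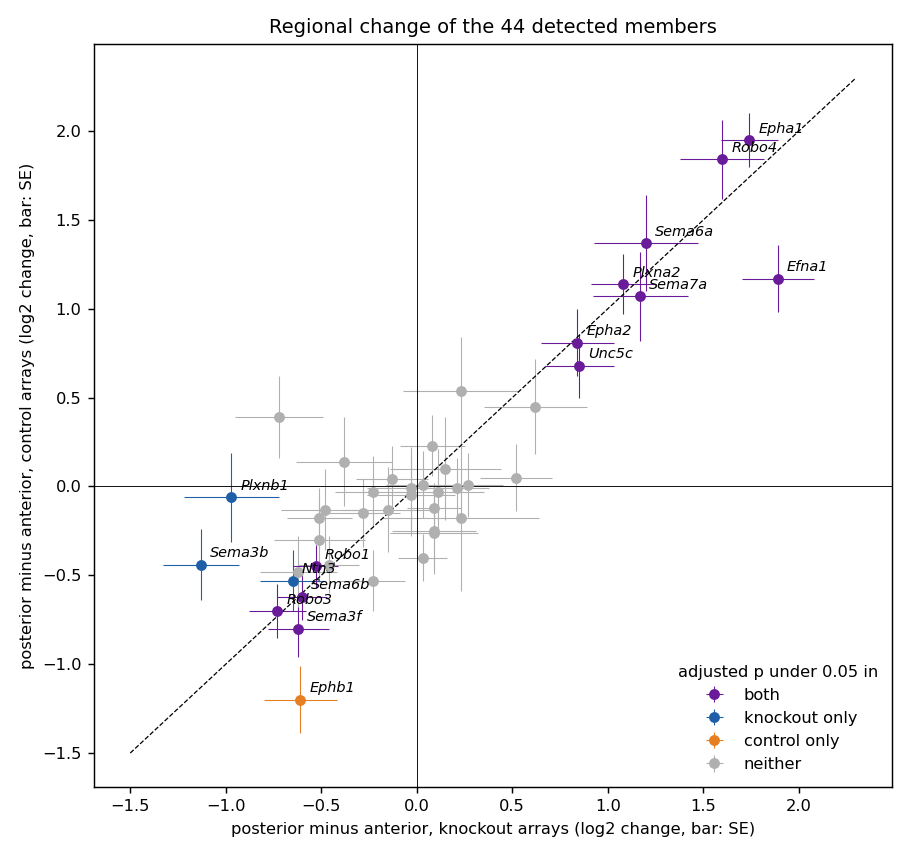
Regional change of each of the 44 detected members, as posterior minus anterior log2 change with its SE, in knockout arrays (horizontal axis) and in control arrays (vertical axis). The dashed line marks equal change. The 12 members past the threshold in both genotypes lie at the upper right (Epha1 at 1.74 in knockout and 1.95 in control arrays) and the lower left (Sema3f at -0.62 and -0.8), and Ephb1 passed in control arrays only. Members that no array of a group detected, such as Robo3 and Sema3b in knockout posterior tissue, are drawn at their fitted differences, which are no measured sizes; under median scaling over detected probes Robo3 was 0.01 in knockout arrays.

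Among the Eph receptors, Epha1 and Epha2, both receptors for ephrin-A ligands, were higher in posterior tissue. Epha1 had 10.37, 10.1 and 10.25 in knockout posterior arrays against 8.66, 8.35 and 8.49 in knockout anterior arrays, a log2 change of 1.74 (SE 0.15, adjusted p = 1.14e-05). In control arrays it had 10.68, 10.23 and 10.24 in the posterior against 8.53, 8.38 and 8.41 in the anterior region (1.95, SE 0.15, adjusted p = 2.76e-06). Posterior and anterior arrays were separated by a wide gap, and the other 3 detected probes of Epha1 gave changes of 1.35 to 1.87 in knockout and 1.2 to 2.32 in control arrays. Epha2, known in the mouse from the primitive streak, had 6.15, 6.5 and 6.57 in knockout posterior arrays against 5.43, 5.67 and 5.62 in knockout anterior arrays (0.84, SE 0.19, adjusted p = 0.0192). In control embryos its posterior values were 6.76, 5.94 and 6.15, against 5.42, 5.43 and 5.57 in the anterior region (0.81, SE 0.19, adjusted p = 0.0263). The groups did not overlap, but control posterior replicate 1 stood above the other 2 posterior arrays, and the change was 0.57 at the least when an array was left out. Under median scaling over detected probes the Epha2 call was lost in both genotypes. In control arrays it was also lost without background correction and with the series matrix values.

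Ephb1, a receptor for ephrin-B ligands, went the other way. It had 7.73, 7.91 and 7.74 in control posterior arrays against 9.02, 9.02 and 8.95 in control anterior arrays (-1.2, SE 0.19, adjusted p = 0.00159). In knockout arrays the values were 7.62, 8.02 and 7.92 in the posterior against 8.48, 8.88 and 8.04 in the anterior region, a change of -0.61 that missed the threshold (adjusted p = 0.062). The 2 regional changes were not shown to differ, with an interaction of 0.59 (SE 0.26, adjusted p = 0.789). The other 8 detected Eph receptors, Epha3, Epha4, Epha6, Epha7, Epha8, Ephb2, Ephb3 and Ephb4, passed in no contrast. Epha3 and Epha6 were detected on 3 arrays only, just inside the rule, while Plxnc1, Robo2, Sema3a and Sema4c, with 2 arrays each, fell just outside it.

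Efna1, which encodes a lipid-anchored ephrin-A ligand, was the called ephrin. Its values were 8.08, 8.42 and 8.31 in knockout posterior arrays against 6.11, 6.3 and 6.71 in knockout anterior arrays (1.89, SE 0.19, adjusted p = 3.74e-05). Control posterior arrays had 7.6, 8.13 and 7.54, against 6.58, 6.49 and 6.68 in control anterior arrays (1.17, SE 0.19, adjusted p = 0.00208). Every posterior array was above every anterior array. So a ligand gene of the A class and 2 of its receptor genes were higher in the same region, with the reserve on the Epha2 calls above. Efna5, another ephrin-A gene, had a negative regional change in both genotypes, -0.46 in knockout (adjusted p = 0.111) and -0.44 in control arrays (adjusted p = 0.179), which did not pass.

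Of the semaphorins, the membrane-bound Sema6a and the lipid-anchored Sema7a were higher in posterior tissue. Sema6a had 7.08, 8.08 and 7.41 in knockout posterior arrays against 6.33, 6.47 and 6.18 in knockout anterior arrays (1.2, SE 0.27, adjusted p = 0.017). In control embryos its posterior values were 7.52, 7.74 and 7.64, against 6.73, 6.4 and 5.67 in the anterior region (1.37, SE 0.27, adjusted p = 0.00854). The groups did not overlap, yet the other 3 detected probes of Sema6a changed by only 0.05 to 0.64 in knockout and 0.26 to 0.35 in control arrays, and with the mean of its probes the call was lost in both genotypes. Sema7a, known as a ligand of plexin C1 and integrins, had 6.78, 5.86 and 6.62 in knockout posterior arrays against 4.96, 5.01 and 5.78 in knockout anterior arrays (1.17, SE 0.25, adjusted p = 0.0124). In control arrays it had 6.21, 5.9 and 6.14 in the posterior against 5.09, 4.97 and 5 in the anterior region (1.07, SE 0.25, adjusted p = 0.0228).

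Sema3f and Sema6b were lower in posterior tissue. Sema3f encodes a secreted semaphorin that acts through neuropilin-2, and its values were 8.55, 8.8 and 8.75 in knockout posterior arrays against 9.48, 9.09 and 9.4 in knockout anterior arrays (-0.62, SE 0.16, adjusted p = 0.0306). Control posterior arrays had 8.9, 8.84 and 9.08, against 9.98, 9.74 and 9.48 in control anterior arrays (-0.8, SE 0.16, adjusted p = 0.00926), and its other probe gave -0.85 in knockout and -0.79 in control arrays. Sema6b, a membrane-bound ligand of class A plexins, had 5.46, 5.25 and 5.61 in knockout posterior arrays against 6.07, 6.05 and 6 in knockout anterior arrays (-0.6, SE 0.13, adjusted p = 0.0167). Its control posterior values were 5.89, 5.85 and 5.64, against 6.53, 6.45 and 6.25 in control anterior arrays (-0.62, SE 0.13, adjusted p = 0.0155). Neither gene's regions overlapped in either genotype, but of the other 2 Sema6b probes, 1 gave 0.3 and the other -0.69 in knockout arrays, and the call was lost with the mean of its probes. It was also lost in both genotypes under median scaling over detected probes, where the change was -0.09 in knockout (adjusted p = 0.835) and -0.6 in control arrays (adjusted p = 0.278).

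Sema3b, another secreted semaphorin gene, passed in knockout arrays alone. Its values there were 4.64, 4.25 and 4.44 in the posterior region, where no array detected it, against 5.69, 5.85 and 5.18 in the anterior region. With the posterior arrays set no lower than their dimmest detected signal, it was at least 1.52-fold lower in posterior tissue on the quantile normalized values. The adjusted p of 0.00392 (limma) belongs to the fitted change of -1.13 and not to that bound. In control arrays the change was -0.44 and did not pass, and neither did the interaction of -0.69 (SE 0.28, adjusted p = 0.739). The other 2 probes changed by -0.07 and -0.42 in knockout arrays, so the Sema3b probes disagree in size. The knockout call was lost under both median scalings, with a fitted change of -0.27 over detected probes (adjusted p = 0.694). Sema4b, for comparison, was among the steadiest members, at 9.81 to 10.25 over all 12 arrays.

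Plxna2, a plexin gene whose product is a receptor for Sema6a, had 10.15, 9.78 and 10.07 in knockout posterior arrays against 8.93, 8.92 and 8.9 in knockout anterior arrays (1.08, SE 0.17, adjusted p = 0.00182). In control embryos the posterior values were 10.24, 10.2 and 9.84, against 9.25, 8.95 and 8.65 in the anterior region (1.14, SE 0.17, adjusted p = 0.00112). Ligand and receptor gene were thus both higher in the posterior region, with the reserve on the Sema6a probes above. Plxnb1, the gene of a Sema4d receptor, passed in knockout arrays, with 5.04, 4.68 and 4.45 in the posterior region, where 1 of 3 arrays detected it, against 5.72, 5.57 and 5.81 in the anterior region (-0.97, SE 0.25, adjusted p = 0.0308). Under median scaling over detected probes that change was -0.17 and did not pass (adjusted p = 0.831). Its regional change in control arrays was -0.06, and the interaction of -0.91 did not pass (SE 0.35, adjusted p = 0.739). Plxnb2 and Plxnd1 passed in no contrast, and Plxnc1, Plxna1, Plxna3, Plxna4 and Plxnb3 were not detected.

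In the netrin and Unc5 families, Ntn3 and Unc5c passed between regions. Ntn3, a secreted netrin gene, had 7.26, 6.71 and 6.8 in knockout posterior arrays (mean 6.92 ± 0.297, SD, n = 3), all below the knockout anterior arrays, which averaged 7.57 ± 0.15 (SD, n = 3; -0.65, SE 0.17, adjusted p = 0.0365), and its other probe gave -1. In control arrays its change was -0.53 and did not pass, and neither did the interaction of -0.11 (SE 0.24, adjusted p = 0.972). Unc5c, a netrin receptor gene, had 8.25, 8.95 and 8.49 in knockout posterior arrays against 7.65, 7.58 and 7.91 in knockout anterior arrays (0.85, SE 0.18, adjusted p = 0.0122). Its control posterior values were 7.73, 7.95 and 7.95, against 7.07, 7.11 and 7.41 in control anterior arrays (0.68, SE 0.18, adjusted p = 0.047). The other 2 Unc5c probes gave 0.71 and 0.74 in knockout and 0.52 and 0.67 in control arrays. Unc5b, by contrast, changed little between regions, by -0.15 in knockout and -0.13 in control arrays.

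All 3 detected Robo receptors passed in both genotypes, but with 1 array left out Robo1 lost its control call in 9 of the 12 omissions (adjusted p up to 0.181) and its knockout call in 3 (up to 0.0617), and Robo3 lost its control call in 4 (up to 0.0786). Robo4, known as the Robo of blood vessel lining cells, had 6.84, 6.61 and 7.18 in knockout posterior arrays against 4.91, 5.83 and 5.11 in knockout anterior arrays (1.6, SE 0.22, adjusted p = 0.00054). In control embryos it had 7.38, 7.47 and 7.56 in the posterior against 5.78, 5.63 and 5.48 in the anterior region (1.84, SE 0.22, adjusted p = 0.000149). Of the blood and endothelium markers 7 of 10 were detected and 0 passed in either regional contrast (limma; at an unadjusted p under 0.05, 1 in knockout and 0 in control arrays); their summed level was 11.22 to 11.46 in knockout posterior against 11.47 to 12.01 in knockout anterior arrays, and 10.98 to 11.38 in control posterior against 11.13 to 11.54 in control anterior arrays. Etv2, at 10.66 to 11.71 on the 12 arrays, makes up most of that sum. The vessel gene Cdh5 stayed between 4.5 and 5.17 on the 12 arrays, close to the detection limit. Kdr, with group means of 4.83 to 5.06, and Pecam1, with 5 to 5.44, were also dim. Gata1, Hbb-y and Hba-x had no detected named probe. These markers therefore cannot show how much vessel tissue a sample held, and its part in the Robo4 change was not tested.

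Robo1, a Slit receptor gene, was lower in posterior tissue, with 8.8, 8.6 and 8.61 in knockout posterior arrays against 9.15, 9.3 and 9.14 in knockout anterior arrays (-0.53, SE 0.12, adjusted p = 0.0187). Control posterior arrays had 8.72, 8.9 and 8.79, against 9.26, 9.36 and 9.16 in control anterior arrays (-0.45, SE 0.12, adjusted p = 0.0496). The change was small but the regions did not overlap in either genotype. Robo3, which in mammals controls midline crossing of axons, had 4.69, 4.56 and 4.84 in knockout posterior arrays, none of them detected, against 5.4, 5.32 and 5.56 in knockout anterior arrays, at least 1.37-fold lower in posterior tissue (adjusted p = 0.0112). In control arrays it had 4.71, 4.89 and 4.49 in the posterior, where 1 of 3 arrays detected it, against 5.47, 5.16 and 5.55 in the anterior region (-0.7, SE 0.15, adjusted p = 0.0162). With the arrays scaled by the median of the probes detected on all of them, Robo3 showed no regional fall in knockout arrays (0.01, adjusted p = 0.991). Slit2 and Slit3, genes of the Robo ligands, passed in neither genotype: Slit2 changed by 0.23 in knockout and 0.54 in control arrays, and Slit3 by 0.62 in knockout and 0.45 in control arrays.

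**Figure D2:**
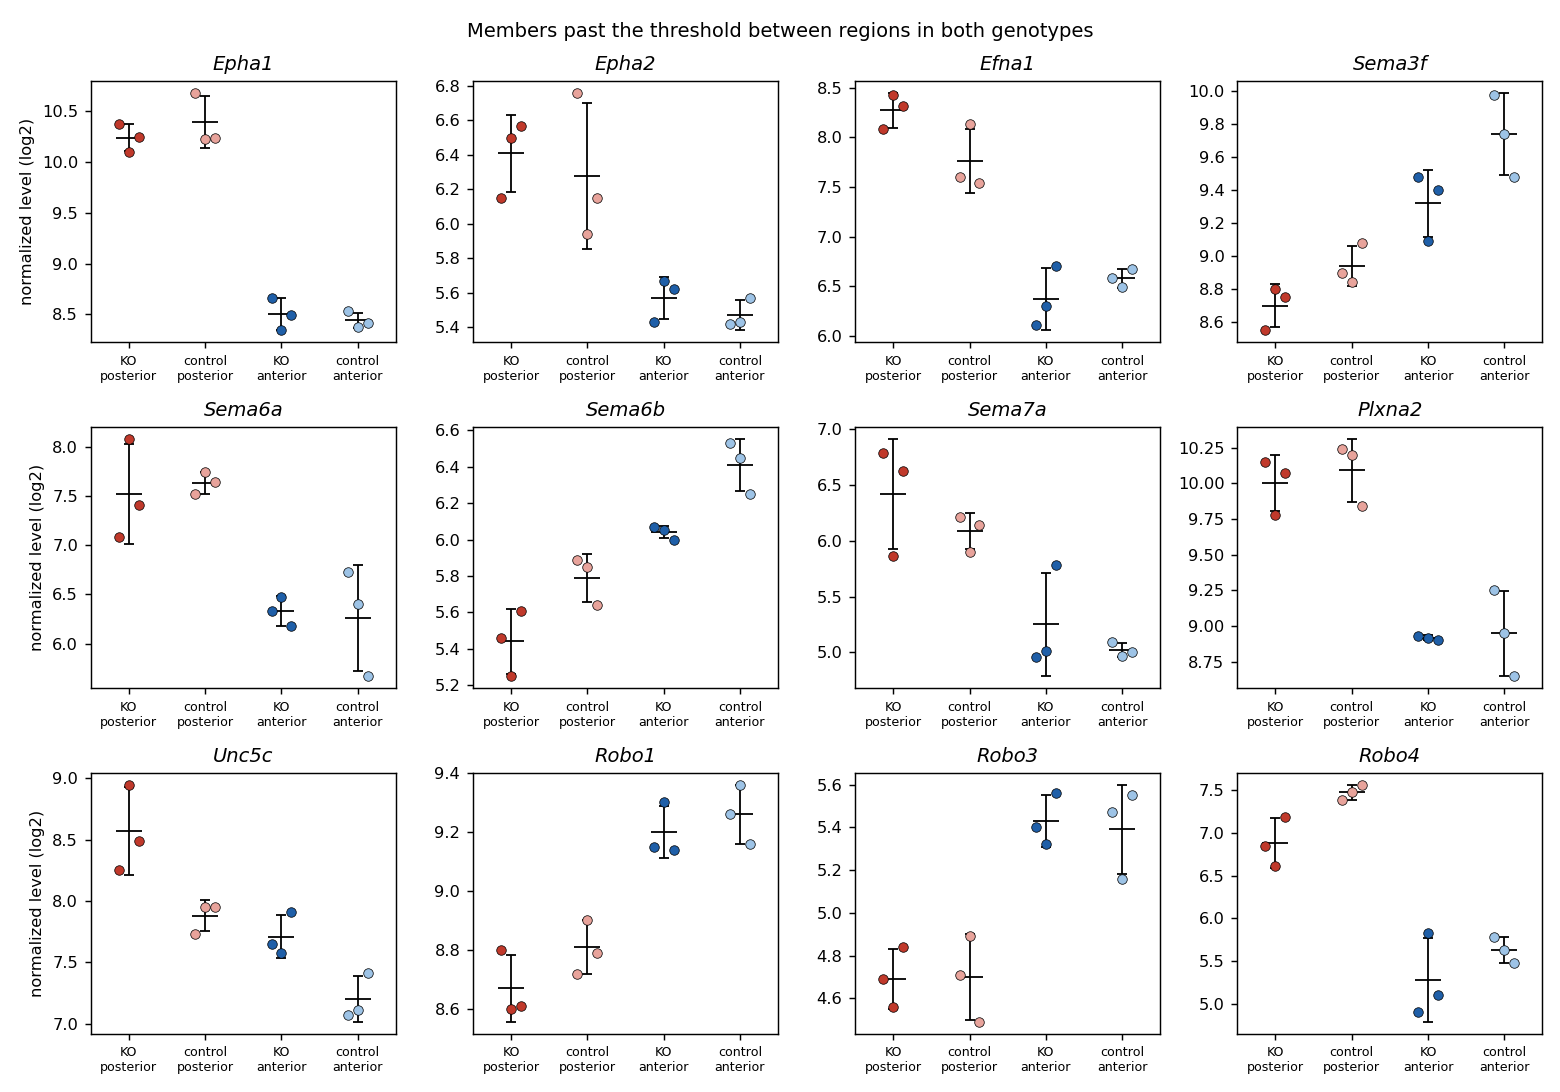
Normalized log2 level of the 12 members past the threshold between regions in both genotypes, 1 point per array, with the group mean and SD as bars (n = 3). In each panel the posterior groups stand left of the anterior groups; Epha1 lies at 10.1 to 10.37 in knockout posterior and 8.35 to 8.66 in knockout anterior arrays, and Robo3 has the opposite order at 4.56 to 4.84 against 5.32 to 5.56, an order that was lost in knockout arrays under median scaling over detected probes.

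Epha1, Efna1, Plxna2 and Robo4 kept their call in both genotypes when each of the 12 arrays was left out in turn, and the other 8 of the 12 members called in both genotypes lost it in at least 1. Ephb1, called in control arrays alone, and Sema3b, called in knockout arrays alone, lost no call in these omissions. Without control anterior replicate 1 or without control posterior replicate 3, 7 members passed in control arrays in place of 13, and without knockout posterior replicate 2 or 3, 10 passed in knockout arrays in place of 15. With arrays scaled by the median of the probes detected on all of them, 9 members passed in knockout arrays (7 higher, 2 lower) and 8 in control arrays (6 higher, 2 lower), and with the median of all probes none did in either. The former scaling lost, among others, Epha2 in both genotypes, Ntn3 in knockout arrays, and Unc5c and Robo1 in control arrays. Shares of all genes called in these settings are not given here, so the counts do not show what is particular to the members. The posterior groups also held more of the streak markers, with a summed level of 12.54 to 13.06 in knockout posterior against 10.3 to 10.78 in knockout anterior arrays, and 12.94 to 13.03 in control posterior against 9.6 to 9.92 in control anterior arrays, and 5 of 6 detected ones passed in each genotype. The epiblast and anterior neural plate markers moved too: of 6 detected, 3 were lower and 1, Pou5f1, higher in knockout posterior tissue, and 5 were lower and 1, again Pou5f1, higher in control posterior tissue. Their summed level was 12.25 to 12.36 in knockout posterior against 11.76 to 12.39 in knockout anterior arrays, and 12.48 to 12.7 in control posterior against 12.73 to 12.88 in control anterior arrays. Pou5f1, the brightest gene of that list (mean 12.2 in knockout posterior arrays), weighs most in this sum. The list's mean level was 6.24 to 6.92 in knockout posterior against 7.67 to 7.94 in knockout anterior arrays. In control arrays it was 7.27 to 7.51 in the posterior against 8.8 to 8.88 in the anterior region. Of the 6 extraembryonic ectoderm markers, 0 passed between regions in knockout arrays (limma; 0 at an unadjusted p under 0.05) and 3 were lower in control posterior tissue, Elf5 (-2.79), Esrrb (-2.12) and Rhox9 (-1.08). The summed level of that list was 8.84 to 9.09 in knockout posterior against 8.48 to 9.2 in knockout anterior arrays, and 8.91 to 9.3 in control posterior against 9.66 to 9.98 in control anterior arrays. The part of these 3 lists in the members' regional changes was not tested.

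Promoter sequences are shown for Epha2 and Robo4, as members higher in the posterior region whose promoters hold a searched motif, and for the Unc5 receptors below. They are taken from RefSeq (GRCm38.p6), run 5′ to 3′ on the gene's strand over 250 bases before and 50 after the annotated start, and have a motif match in capitals. The motifs searched on both strands were CTTTGAA and CTTTGAT (TCF/LEF, the factors that act with beta-catenin in Wnt signalling), TCACACCT (a T-box site) and TAATCC (Otx), which do not overlap each other. The Epha2 promoter, at chr4:141300971-141301270 on the plus strand, holds CTTTGAA starting at position -209, and the Robo4 promoter, at chr9:37401722-37402021 on the plus strand, holds GGATTA, the reverse complement of TAATCC, at position -129.
Epha2: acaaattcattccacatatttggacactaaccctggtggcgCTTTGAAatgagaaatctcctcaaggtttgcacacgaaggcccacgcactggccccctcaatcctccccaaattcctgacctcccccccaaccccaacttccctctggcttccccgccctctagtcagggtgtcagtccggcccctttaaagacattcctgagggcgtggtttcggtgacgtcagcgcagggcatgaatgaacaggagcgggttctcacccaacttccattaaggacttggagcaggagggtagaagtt
Robo4: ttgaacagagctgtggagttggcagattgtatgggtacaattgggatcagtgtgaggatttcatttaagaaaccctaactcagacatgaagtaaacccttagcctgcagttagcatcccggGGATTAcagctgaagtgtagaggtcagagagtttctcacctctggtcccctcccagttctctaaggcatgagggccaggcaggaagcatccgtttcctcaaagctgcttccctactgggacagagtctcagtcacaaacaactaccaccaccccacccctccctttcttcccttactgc
Of the 44 members 40 had a promoter entry. CTTTGAA or CTTTGAT was found in 2 of the 40 (Epha2 and Sema3e), against 8.65% of all 32851 promoters, TAATCC in 2 (Robo3 and Robo4), against 7.06%, and TCACACCT in 1 (Sema4a), against 1.28%. A match is a string of letters and not a shown binding site.

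The second comparison asks what the loss of Dkk changes, and few members passed it. In the anterior region 0 of the 44 members passed, against 0.503% of all genes, and in the posterior region 0 passed, where 0 of the 11124 genes did (limma). At an unadjusted p under 0.05 there were 8 of the 44 members in the anterior region, against 1009 of the 11124 genes. In the posterior region there were 8 of the 44, against 1104 of the 11124 genes, so the members had the larger share in both regions. The median size of the genotype change was 0.12 over the members and 0.14 over all genes in the anterior region, and 0.19 over the members and 0.15 over all genes in the posterior region. Averaged over both regions, 1 member of 44 passed (2.27%), against 0.512% of all genes, and it was lower in knockout arrays, as 0.261% of all genes were. No member passed the interaction, which 1 of all genes did (0.00899%). There 6 of the 44 members had an unadjusted p under 0.05, against 685 of the 11124 genes, again a larger share of the members. The genotype change had the same sign in both regions in 23 of the members (52.3%), against 57.3% of all genes.

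**Figure D3:**
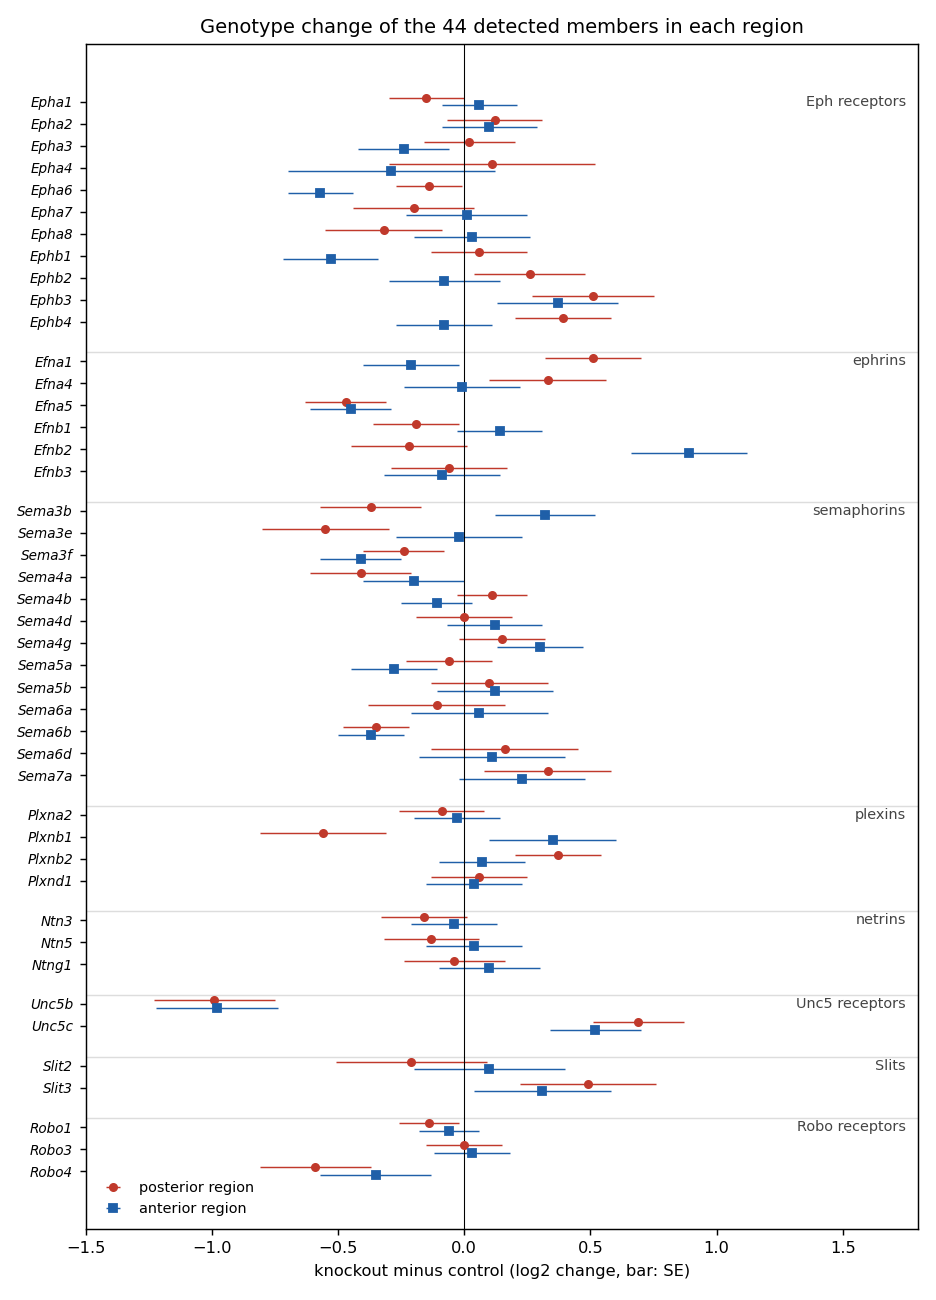
Genotype change of each of the 44 detected members, as knockout minus control log2 change with its SE, in the posterior region (circles) and the anterior region (squares), by family. Unc5b stands apart at -0.99 in the posterior and -0.98 in the anterior region, Efnb2 reached 0.89 in the anterior region alone, and most other members lie within 0.5 of 0; members that no array of a group detected are drawn at their fitted differences, and no member passed the threshold in either region.

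The member that passed on average over both regions was Unc5b, a receptor gene through which netrins repel cells, which an earlier result on these data had already named. Its values were 7.64, 7.7 and 7.24 in knockout posterior arrays against 8.73, 8.82 and 8 in control posterior arrays, and 7.76, 7.68 and 7.58 in knockout anterior arrays against 8.89, 8.92 and 8.14 in control anterior arrays. All knockout arrays were below all control arrays of either region, and replicate 3 was the lowest array in each of the 4 groups. The average over regions treats anterior and posterior arrays as independent. The labels leave unsaid whether a replicate number marks shared embryos, and if it does, the SE of that average could be too small. The mean log2 change was -0.98 (SE 0.17, adjusted p = 0.0268), which is 0.506-fold. It was -0.98 in the anterior region (SE 0.24, adjusted p = 0.147) and -0.99 in the posterior region (SE 0.24, adjusted p = 0.265), with an interaction of -0.01 (SE 0.34, adjusted p = 0.997). Of the spread of Unc5b over the 12 arrays, 74.4% lay between genotypes and 1.52% between regions. Region took more than 50% in 16 members and genotype in 2, Unc5b and Epha6. That count was not made over all genes, so it shows nothing particular to these families. Epha6 met the detection rule only through the 3 control anterior arrays, where it was highest, so its share rests mostly on undetected values.

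The Unc5b call was lost when any 1 of 8 arrays was left out: control anterior replicate 1 or 2, control posterior replicate 1 or 2, any knockout anterior array, or knockout posterior replicate 3. Over the 12 omissions its change stayed between -1.11 and -0.9, with an adjusted p of 0.0102 to 0.0925. Unc5b had 1 detected probe, so no second probe was at hand. In knockout arrays 4 of the 6 detected epiblast and anterior neural plate markers were also lower on average (Sox2, Otx2, Pou3f1 and Lhx5), and the summed level of that list was 12.25 to 12.36 in knockout posterior against 12.48 to 12.7 in control posterior arrays, and 11.76 to 12.39 in knockout anterior against 12.73 to 12.88 in control anterior arrays. Pou5f1, the brightest gene of that list, weighs most in this sum. The list's mean level was 6.24 to 6.92 in knockout posterior against 7.27 to 7.51 in control posterior arrays. In the anterior region it was 7.67 to 7.94 in knockout against 8.8 to 8.88 in control arrays. The part of that list's shift in the Unc5b change was not tested.

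Unc5c, the other detected Unc5 receptor gene, had the opposite sign and missed the threshold. It had 8.25, 8.95 and 8.49 in knockout posterior arrays against 7.73, 7.95 and 7.95 in control posterior arrays, and 7.65, 7.58 and 7.91 in knockout anterior arrays against 7.07, 7.11 and 7.41 in control anterior arrays. Within each region the genotypes did not overlap. The mean change was 0.6 (SE 0.13, adjusted p = 0.0617), with 0.69 in the posterior region (adjusted p = 0.271) and 0.52 in the anterior region (adjusted p = 0.389), and its other 2 probes gave 0.48 and 0.28 on average. Unc5a and Unc5d were not detected, and Dcc, the attractive netrin receptor gene, had no detected named probe.

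The promoters of Unc5b, at chr10:60831532-60831831 on the minus strand, and Unc5c, at chr3:141465314-141465613 on the plus strand, are shown because these receptor genes had genotype changes of opposite sign. Neither holds any of the searched motifs in these 300 bases, so there are no capitals, and their GC content is 69.7% for Unc5b and 68.3% for Unc5c.
Unc5b: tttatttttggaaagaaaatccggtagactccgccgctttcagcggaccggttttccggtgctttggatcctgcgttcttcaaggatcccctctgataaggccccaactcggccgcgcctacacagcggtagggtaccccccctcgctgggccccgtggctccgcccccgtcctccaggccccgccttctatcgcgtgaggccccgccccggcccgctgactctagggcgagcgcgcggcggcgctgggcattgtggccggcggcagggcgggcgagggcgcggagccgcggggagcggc
Unc5c: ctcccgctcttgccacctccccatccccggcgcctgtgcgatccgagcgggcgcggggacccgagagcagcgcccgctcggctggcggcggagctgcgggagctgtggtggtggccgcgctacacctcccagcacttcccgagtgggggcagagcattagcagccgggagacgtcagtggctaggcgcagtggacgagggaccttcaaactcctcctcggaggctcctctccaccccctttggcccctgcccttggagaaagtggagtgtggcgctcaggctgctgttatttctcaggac

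**Figure D4:**
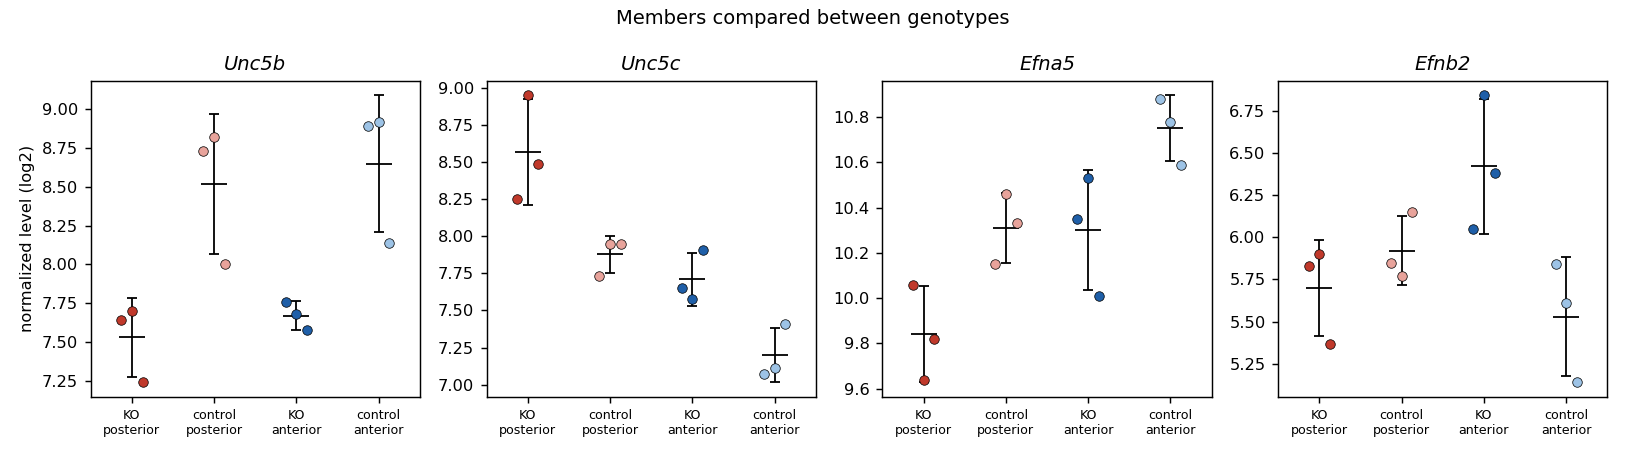
Normalized log2 level of Unc5b, Unc5c, Efna5 and Efnb2, 1 point per array, with the group mean and SD as bars (n = 3). For Unc5b every knockout point (7.24 to 7.76) lies below every control point (8 to 8.92), for Unc5c the knockout points lie above the control points of the same region, and for Efnb2 the knockout anterior arrays (6.05 to 6.84) lie above the control anterior arrays (5.14 to 5.84).

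Among the ephrins, Efnb2, a membrane ligand of EphB receptors, had 6.05, 6.84 and 6.38 in knockout anterior arrays against 5.84, 5.61 and 5.14 in control anterior arrays. The groups did not overlap, but the change of 0.89 missed the threshold (SE 0.23, adjusted p = 0.158). In the posterior region it had 5.83, 5.9 and 5.37 in knockout against 5.85, 5.77 and 6.15 in control arrays, a change of -0.22 (adjusted p = 0.779). The interaction was -1.12 (SE 0.32, adjusted p = 0.564), so a difference between regions was not shown. Efna5 had 10.06, 9.64 and 9.82 in knockout posterior arrays against 10.15, 10.46 and 10.33 in control posterior arrays, and 10.35, 10.53 and 10.01 in knockout anterior arrays against 10.88, 10.78 and 10.59 in control anterior arrays. Its knockout values were below the control values of the same region throughout, and its mean change of -0.46 missed the threshold (SE 0.12, adjusted p = 0.104). Efna1 changed by 0.51 in the posterior region (adjusted p = 0.417), with an interaction of 0.72 (SE 0.27, adjusted p = 0.739).

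Epha6 had 4.35, 4.33 and 4.53 in knockout anterior arrays, none of them detected, against 4.98, 4.9 and 5.02 in control anterior arrays, which all detected it. It was at least 1.05-fold lower in knockout arrays, and the test did not pass (adjusted p = 0.108). In posterior tissue no array of either genotype detected it. Epha6 thus met the detection rule only through the control anterior arrays. That rule favours a higher level in this group, so the bound and the p-value are given as a description only. Ephb3 had the largest genotype change of the Eph receptors in the posterior region, 0.51 (adjusted p = 0.505), with overlapping arrays. The extraembryonic ectoderm markers also differed in anterior tissue: all 6 were detected, their summed level was 8.48 to 9.2 in knockout anterior against 9.66 to 9.98 in control anterior arrays, and Rhox9 was lower in knockout arrays, the other 5 not passing. That tissue's part in the anterior values of Epha6, Ephb1 and the other members was not tested.

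In the remaining families the genotype changes stayed short of the threshold. Among the semaphorins Sema3f changed by -0.41 in the anterior region (adjusted p = 0.45), and Sema3e, which no knockout posterior array detected, was at least 1.01-fold lower in knockout posterior than in control posterior arrays (adjusted p = 0.496). Plxnb1 led the plexins with 0.35 in the anterior region (adjusted p = 0.736) and -0.56 in the posterior region (adjusted p = 0.485), and under median scaling over detected probes both fitted posterior values turned positive, 0.36 for Sema3e and 0.35 for Plxnb1. The largest values among the netrin genes were 0.1 for Ntng1 in the anterior region (adjusted p = 0.933) and -0.16 for Ntn3 in the posterior region (adjusted p = 0.794). Slit3, a Robo ligand gene, changed by 0.31 in the anterior region (adjusted p = 0.799) and 0.49 in the posterior region (adjusted p = 0.572). Robo4 had 6.84, 6.61 and 7.18 in knockout posterior arrays against 7.38, 7.47 and 7.56 in control posterior arrays, which do not overlap. Its posterior change, -0.59 (SE 0.22), missed the threshold (adjusted p = 0.408), and so did -0.35 in the anterior region (adjusted p = 0.701).

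Over the whole set, 17 of the 44 detected members passed in at least 1 of the 6 contrasts (38.6%), against 10% of all genes, and 27 in none. The members with no call were 8 semaphorins, 8 Eph receptors, 5 ephrins, 2 plexins, 2 netrins and 2 Slits, whose range over the 12 arrays ran from 0.44 for Sema4b to 1.87 for Slit3. The members with the widest range were Robo4 (2.66), Sema6a (2.41), Epha1 (2.33) and Efna1 (2.31), each separated by region. Replicates were more spread in knockout arrays, for the members as for all genes. The members had a median SD of 0.279 in knockout posterior against 0.197 in control posterior arrays, and 0.212 in knockout anterior against 0.181 in control anterior arrays. Over all genes it was 0.202 in knockout posterior against 0.158 in control posterior arrays, and 0.186 in knockout anterior against 0.17 in control anterior arrays. When arrays were weighted by their quality, the lowest weights fell on knockout anterior replicate 2 (0.34) and knockout posterior replicate 2 (0.356). The part of these arrays in the wider spread was not tested.

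Of 22 listed co-receptors and other ligands of these pathways 15 were detected, and 0 passed between genotypes in either region or on average (limma). At an unadjusted p under 0.05 there were 3 of the 15 in anterior tissue, 1 in posterior tissue and 3 on average. The counts over the 11124 genes were 1009, 1104 and 1377. Between regions 3 passed in knockout arrays, against 7.87% of all genes, and 2 in control arrays, against 4.98% of all genes. Nrp1, the co-receptor gene of secreted semaphorins, was lower in posterior tissue, at 9.68, 9.79 and 9.46 in knockout posterior against 10.1, 10.55 and 10.16 in knockout anterior arrays (-0.63, adjusted p = 0.03), and -0.71 in control arrays (adjusted p = 0.0178). Draxin, a secreted repellent gene, was higher there, by 0.88 in knockout (adjusted p = 0.00925) and 0.92 in control arrays (adjusted p = 0.00754). Rgma, a ligand gene of neogenin, passed in knockout arrays (-0.45, adjusted p = 0.0366), with -0.02 in control arrays and an interaction of -0.43 that did not pass (adjusted p = 0.739). Nrp2 and Neo1, the neogenin gene, passed in no contrast: between regions Nrp2 changed by -0.25 in knockout and -0.03 in control arrays, and Neo1 by -0.28 in knockout and -0.36 in control arrays.

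Of 42 listed cytoplasmic effectors 30 were detected, and 0 passed between genotypes (limma). At an unadjusted p under 0.05 there were 7 of the 30 in anterior tissue, 4 in posterior tissue and 8 on average. The counts over the 11124 genes were 1009, 1104 and 1377, a smaller share each time. Between regions Dpysl4 and Crmp1, members of the collapsin response mediator family that relays semaphorin signals, were higher in knockout posterior arrays (0.57 and 0.9). In control arrays Dpysl4 (0.7) and Dpysl5 (0.63) were higher and Vav3, an exchange factor gene that acts below Eph receptors, was lower (-0.72). Those 2 of 30 and 3 of 30 stand against the 7.87% of all genes called in knockout arrays and the 4.98% in control arrays.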

How the data were processed

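Gene expression was measured on Illumina bead arrays in 12 samples of 3 per group. The deposited table holds probe intensity on a linear scale, without background subtraction or scaling between arrays, and a detection p-value per probe, per the file headers and its values. GenomeStudio was used, per the submitters' processing notes; the sources used here give neither its version nor the array model. The deposited series matrix holds log2 values of 33557 probes (72.6%) with a median of 6.66 on every array and the rank order of the intensities kept; whether background was subtracted stays unknown. It was used as an alternative.

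Intensities were background corrected with 936 implied negative controls and an offset of 16, quantile normalized and put on the log2 scale (neqc, limma 3.58.1, R 4.3.3). Of 46237 probes 30058 carried 1 gene name (643 updated through the RefSeq table of GRCm38.p6), none several, and 16179 carried none. Probes were kept where 3 or more of the 12 arrays had a detection p-value below 0.05, and the brightest probe on average stood for a gene, for 11124 genes in all. All were fitted in limma with 1 mean per group (prior degrees of freedom 4.86), and p-values were adjusted by Benjamini and Hochberg over all genes in each of 6 contrasts. Adjusted p-values in the text are limma's, two-sided, and called means under 0.05. Changes are log2 fold changes with SE. For a group in which no array detected the gene, its arrays were raised to the lowest detected signal to give an "at least" fold. Such a bound holds for the quantile normalized values alone, and the adjusted p beside it tests the fitted difference. A summed level is log2 of the sum of a list's linear normalized values, so the brightest genes of a list weigh most. A mean level is the mean of the list's log2 values. The code was tested on simulated data.

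Members were symbols of the form Epha, Ephb, Efna or Efnb with a number, Sema with a number and letter, Plxna to Plxnd with a number, Ntn or Ntng with a number, Unc5a to Unc5d, and Slit or Robo with a number. Undetected members, besides those named in the results, were Efna2, Efna3, Epha10, Epha5, Ephb6, Ntn4, Ntng2, Sema3c, Sema3g, Sema4f, Sema6c and Slit1. The text gives values for every called member, the 3 smallest p-values where fewer than 3 were called, the largest genotype change in each family and region, and the brightest probe of each family; the members most and least variable were picked after seeing values. Brightness was not compared between probes. The members and lists were chosen with earlier results of these data known. Replicate numbers are shared between groups, but samples of the same number did not deviate together in every pair (correlations of -0.111 to 0.221), so no block entered the fit. The number of arrays limits the precision. The alternatives changed background correction, scaling, filter, probe choice, variance model, array weights, samples in the fit and block, and left out each array.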

Additional observations from a re-analysis of the deposited data

How the results depend on the processing

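Counts of members past the threshold were recomputed under up to 13 alternatives and with each of the 12 arrays left out. The share of all genes called in each setting is not given here. These counts therefore do not show what is particular to the members. In the anterior genotype comparison the count of 0 became 1 with cyclic loess (Epha6), 1 with trended and robust variances (Unc5b) and 8 with array weights (2 higher, 6 lower), a setting in which control anterior replicate 2 had a weight of 5.71 and knockout anterior replicate 2 one of 0.34. Epha6 met the detection rule only through the control anterior arrays, so its calls here are given as a description only. The posterior and interaction counts stayed at 0 under the alternatives run. Averaged over regions the count of 1 became 3 without background correction, with the series matrix values and with trended and robust variances (Unc5b, Unc5c and Efna5 in each), 2 with an offset of 50, cyclic loess or the stricter detection filter, 6 with array weights, and 0 under both median scalings and without the detection filter. Between regions the 13 of control arrays became 8 (6 higher, 2 lower) under median scaling over detected probes and 0 over all probes, and the 15 of knockout arrays became 9 (7 higher, 2 lower), 0, and 8 with only the groups compared in the fit. With 1 array left out the counts were 0 to 0 in the anterior, posterior and interaction comparisons, 0 to 2 on average, 7 to 13 in control and 10 to 15 in knockout arrays. With the replicate number as a block the counts were unchanged at 0, 0, 1, 13, 15 and 0. For the genotype comparisons that block joined knockout and control arrays of the same number within a region. It therefore could not check whether anterior and posterior arrays of a number shared embryos. Of the 12 arrays, 6 correlated best with their own number in the other region of the same genotype. The cause of these differences was not tested, except that leaving out an array leaves fewer samples. Median scaling over all probes moved the median of all genes by -0.22 in the anterior and -0.68 in the posterior genotype comparison, and by -0.52 between regions in knockout arrays; over detected probes the posterior shift was 0.16.

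Changes that turned sign, none past the threshold there, were Ntng1 in the anterior region (-0.13 over all probes, -0.11 without knockout anterior replicate 2, and up to 0.26 with other arrays left out); in the posterior region Unc5c (-0.18), Efna1 (-0.35) and Slit3 (-0.13) over all probes, which are 0.5, 0.33 and 0.55 relative to that median, and Sema3e (0.36), Plxnb1 (0.35) and Ntn3 (0.01) over detected probes; Robo3 between regions in knockout arrays (0.01); and the Unc5b interaction, whose value of -0.01 became -0.52 over all probes and turned sign elsewhere (0.01 without background correction, 0.03 with cyclic loess, 0.01 over detected probes, 0.01 with the series matrix values, 0.07 with array weights, and -0.27 to 0.24 with 1 array left out: 0.24 without control anterior replicate 3, 0.09 and 0.14 without control posterior replicate 1 and 2, 0.03 without knockout anterior replicate 1 and 0.13 without knockout posterior replicate 3). The average Unc5b change ran from -1.53 to -0.74 and its call was lost in 11 of 24 settings. With 1 array left out, calls in control arrays were lost for Unc5c (9 of the 12 omissions, adjusted p up to 0.156), Robo1 (9, up to 0.181), Sema7a (6, up to 0.091), Epha2 (5, up to 0.0929), Robo3 (4, up to 0.0786) and Sema6b (3, up to 0.0752). In knockout arrays they were lost for Plxnb1 (5, up to 0.0942), Ntn3 (5, up to 0.12), Sema3f (4, up to 0.0936), Epha2 (3, up to 0.0638), Robo1 (3, up to 0.0617), Sema6a (2, up to 0.0598), Sema6b (0.0531 without knockout posterior replicate 2) and Sema7a (0.0522 without knockout anterior replicate 2).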
